A study of Mus musculus with 12 samples.

Results

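The 7 genes described here are 6 chemokine ligands of the CXC class, *Cxcl1*, *Cxcl2*, *Cxcl3*, *Cxcl5*, *Ppbp* and *Pf4*, and *Cxcr2*, the receptor through which most of them act on neutrophils. They were chosen by name as one chemokine family, with earlier results of these data known. They are 7 of the 18193 genes that the arrays measured with a probe set annotated to a single gene, and they carry 9 of the 34945 such probe sets. *Cxcl1* has 3 probe sets and each other member has 1, and for *Cxcl1* the brightest set on average (1457644_s_at) gave the main values.

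Whole mouse skin was profiled on 12 Affymetrix arrays in 4 groups of 3. The groups were *Ahr*-/- skin on day 2 of imiquimod (AhR KO 2d Imiquimod), *Ahr*+/- skin on day 2 of imiquimod (AhR HET 2d Imiquimod), untreated *Ahr*-/- skin (AhR KO untreated) and untreated *Ahr*+/- skin (AhR HET untreated). AhR, the aryl hydrocarbon receptor, is a transcription factor that binds dietary, microbial and environmental small molecules, and imiquimod (IMQ) is a Toll-like receptor agonist that causes a psoriasis-like inflammation when rubbed into mouse skin as a cream. The comparisons ask how chemokine mRNA responds to imiquimod in each genotype and whether skin without AhR responds differently. The deficient mice lack AhR in all their cells, their controls were heterozygous littermates that keep 1 working allele, and age and sex are not given in the sources used here. Untreated mice received no cream, so imiquimod, the cream base and the handling of shaved skin cannot be told apart.

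In mice CXCL1, CXCL2, CXCL3 and CXCL5 are made by keratinocytes, fibroblasts, macrophages and neutrophils under signals from interleukin 1, interleukin 17 and tumour necrosis factor, largely through the transcription factor NF-kB, and draw neutrophils out of the blood through CXCR2. *Ppbp* encodes the precursor of CXCL7 and *Pf4* encodes platelet factor 4, both stored in platelet granules, and of the ligands named here only platelet factor 4 lacks the glutamate-leucine-arginine motif that CXCR2 recognises. Neutrophils gathering in the outer epidermis are a hallmark of psoriatic and imiquimod-treated skin.

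The 6 ligand genes lie beside each other on chromosome 5, in the order *Cxcl5*, *Ppbp*, *Pf4*, *Cxcl3*, *Cxcl15*, *Cxcl1* and *Cxcl2* with *Cxcl15* as the only other protein-coding gene of the RefSeq table among them, and *Cxcr2* lies on chromosome 1. RefSeq promoter windows of build GRCm38.p6, 250 bases before to 50 bases after each start site, matched 6 of the 7 members and were not matched for *Cxcl5*. The 140 bases before the start site are shown for *Cxcl1*, *Cxcl2* and *Cxcl3*, which hold the same kappa B run, and for *Ppbp*, whose window has no kappa B match. Capitals mark matches to the kappa B pattern of NF-kB, GGG, any 5 bases and CC, on either strand.
Cxcl1, chr5:90891105-90891244, + strand: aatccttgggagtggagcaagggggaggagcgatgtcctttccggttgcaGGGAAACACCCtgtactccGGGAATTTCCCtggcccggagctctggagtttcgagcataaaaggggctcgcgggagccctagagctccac
Cxcl2, chr5:90903759-90903898, + strand: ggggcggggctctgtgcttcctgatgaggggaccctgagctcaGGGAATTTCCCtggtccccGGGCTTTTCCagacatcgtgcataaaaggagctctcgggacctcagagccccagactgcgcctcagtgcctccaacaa
Cxcl3, chr5:90785961-90786100, + strand: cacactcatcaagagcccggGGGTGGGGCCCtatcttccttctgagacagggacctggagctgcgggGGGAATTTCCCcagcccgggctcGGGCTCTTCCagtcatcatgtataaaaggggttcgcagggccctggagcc
Ppbp, chr5:90768378-90768517, + strand: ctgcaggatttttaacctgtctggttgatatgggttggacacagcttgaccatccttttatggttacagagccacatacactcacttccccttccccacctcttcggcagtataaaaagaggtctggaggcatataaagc

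*Cxcl1*, *Cxcl2* and *Cxcl3* share the run GGGAATTTCC, which begins at positions -71, -97 and -73 from their start sites, and which 29 of 32851 RefSeq promoter windows (0.0883%) hold on either strand. The run was noticed after the sequences had been read. The general kappa B pattern was found in 4 of the 6 member windows, those of *Cxcl1*, *Cxcl2*, *Cxcl3* and *Cxcr2*, and in 50.8% of all windows. The core of the xenobiotic response element to which AhR binds, GCGTG, was found only in the window of *Cxcl2* among the 6, with 2 matches, and in 32.4% of all windows. An AP-1 pattern, TGANTCA, stood in the *Ppbp* window and in 7.81% of all windows, a C/EBP pattern (TTGC, any 2 bases, AA) in that of *Pf4* and in 10.8% of all, and TATAAA in those of *Cxcl3* and *Ppbp* and in 13.6% of all. These matches describe letters and not bound sites.

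**Figure D1:**
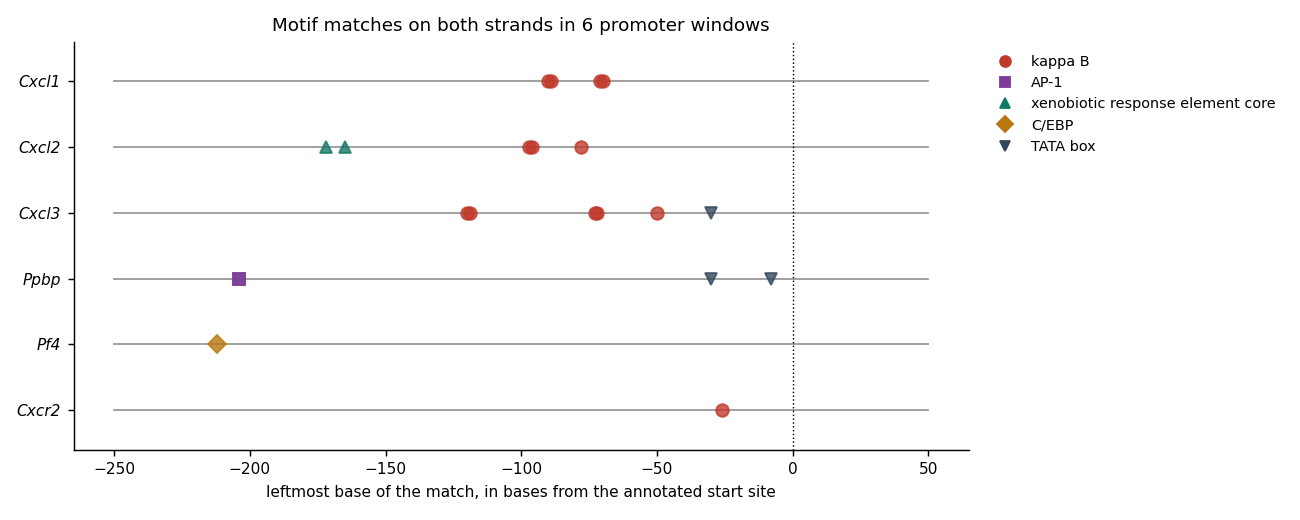
Position of each motif match (x axis, bases from the annotated start site at 0, leftmost base of the match) in the 250 bases before and 50 after the start sites of 6 members, one line a gene, matches on both strands drawn. The kappa B matches of *Cxcl1*, *Cxcl2* and *Cxcl3* begin between positions -120 and -50, and neighbouring points 1 base apart are the same run read on each strand.

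Before the results, 3 arrays stood apart from the others. *Gapdh* control sets at the 3' end of the transcript exceeded those at its 5' end, a sign of RNA or labelling quality, by a log2 value of 1.17 and 1.52 in *Ahr*-/- IMQ replicates 1 and 2, against 0.14 to 0.53 in the other 10 arrays. The 17 measured hair follicle growth genes averaged 11.93 in untreated *Ahr*+/- replicate 2 and 5.87 to 8.20 in the remaining 11 arrays. The tests of the 7 members were therefore also computed without these arrays. The gene lists and correlations described below were computed on all 12 arrays only. The *Ahr* probe set gave 9.07 to 9.87 in *Ahr*-/- IMQ skin, 9.79 to 10.27 in *Ahr*+/- IMQ skin, 11.29 to 11.44 in untreated *Ahr*-/- skin and 10.11 to 11.30 in untreated *Ahr*+/- skin, and as its place relative to the deleted part is not known here it does not check the genotype labels. The 3 arrays of a group were treated as biological replicates. The p-values set each difference against the spread between arrays of a group, pooled for each gene over all 4 groups, also those outside a comparison.

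Keratinocyte markers, which define the labelled tissue, were high in every array. The 9 measured keratinocyte markers averaged 11.97 to 12.19 in *Ahr*-/- IMQ skin, 12.62 to 13.45 in *Ahr*+/- IMQ skin, 12.75 to 12.97 in untreated *Ahr*-/- skin and 12.55 to 12.91 in untreated *Ahr*+/- skin (mean log2 signal per array). In this tissue the values of the 7 members are log2 signals after robust multi-array averaging (RMA), and a difference of 1 is a 2-fold change in signal.

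The members were first compared between *Ahr*-/- and *Ahr*+/- skin on day 2 of imiquimod. All 7 members were higher in *Ahr*-/- skin, and *Cxcl5*, *Cxcl3* and *Cxcl2* had the 3 largest rises of the 18193 genes. A gene was called at a Benjamini-Hochberg adjusted p under 0.05 over all genes, from limma, and a fold of at least 1.5. By that rule 7 of 7 members were called higher, against 2.12% of all genes, with a median fold of 14.9, that of *Ppbp*, where the median of all genes was a log2 difference of 0.06. In all 7, every *Ahr*-/- array lay above every *Ahr*+/- array, as in 18.0% of all genes.

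*Cxcl2*, a chief neutrophil attractant of mouse tissue, had log2 signals of 13.42, 13.57 and 13.17 in *Ahr*-/- IMQ replicates 1, 2 and 3, against 10.67, 7.82 and 5.99 in the *Ahr*+/- IMQ replicates. The *Ahr*-/- arrays sat within 0.40 of each other, and the *Ahr*+/- arrays spanned 4.69. The difference was 5.23 (standard error 0.79, adjusted p = 0.00351 from limma), a 37.5-fold higher signal with a 95% interval of 11.4 to 123. *Cxcl3*, a close relative of *Cxcl2*, had 12.02, 11.88 and 11.85 in *Ahr*-/- IMQ skin, against 10.18, 6.06 and 3.73 in *Ahr*+/- IMQ skin. Here too only the *Ahr*+/- arrays were far apart, with an SD of 0.09 in *Ahr*-/- and 3.27 in *Ahr*+/- skin. The *Cxcl3* difference was 5.26 (standard error 1.08, adjusted p = 0.0186), or 38.4-fold (95% interval 7.61 to 194).

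*Cxcl5*, known in mice as an epithelial chemokine, had 10.94, 10.29 and 11.84 in *Ahr*-/- IMQ skin, against 8.77, 5.40 and 2.97 in *Ahr*+/- IMQ skin. Its lowest *Ahr*+/- array was as low as untreated skin. The difference was 5.31 (standard error 1.00, adjusted p = 0.0119), or 39.7-fold (95% interval 8.84 to 178). *Cxcl1*, whose product is long known in mice as KC, moved less, with 11.19, 11.11 and 10.19 in *Ahr*-/- IMQ skin, against 9.91, 9.32 and 8.16 in *Ahr*+/- IMQ skin. The groups came within 0.28 of each other. The difference was 1.70 (standard error 0.37, adjusted p = 0.0253), or 3.24-fold (95% interval 1.86 to 5.65).

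The other probe sets of *Cxcl1* gave smaller differences that were not called. Set 1419209_at read 10.99, 10.45 and 10.14 in *Ahr*-/- IMQ skin, against 10.09, 9.51 and 8.08 in *Ahr*+/- IMQ skin, a 2.46-fold difference (adjusted p = 0.140 over all probe sets, limma). Set 1441855_x_at read 9.16, 9.34 and 8.68 in *Ahr*-/- IMQ skin, against 8.67, 8.25 and 8.29 in *Ahr*+/- IMQ skin (1.57-fold, adjusted p = 0.142). In each set all *Ahr*-/- arrays lay above all *Ahr*+/- arrays, so the sets agreed in direction and differed in size and in the call.

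*Ppbp*, the platelet basic protein gene, had the lowest adjusted p of the 7 on day 2, and its signal stood clear of a low level only in *Ahr*-/- IMQ skin. It had 8.62, 7.27 and 9.00 in *Ahr*-/- IMQ skin, against 4.61, 4.47 and 4.11 in *Ahr*+/- IMQ skin. The lowest *Ahr*-/- array exceeded the highest *Ahr*+/- array by 2.66. The 14.9-fold difference had a 95% interval of 9.07 to 24.4 and an adjusted p of 7.1e-05 from limma. *Pf4*, the platelet factor 4 gene, was high in all groups and had 11.69, 11.80 and 12.29 in *Ahr*-/- IMQ skin, against 10.59, 10.43 and 10.61 in *Ahr*+/- IMQ skin. This smaller difference of 1.38 (standard error 0.31, adjusted p = 0.0268, 2.61-fold) had the least spread among *Ahr*+/- arrays of any member, with an SD of 0.10.

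*Cxcr2*, the receptor carried mainly by neutrophils, had 9.03, 9.15 and 9.63 in *Ahr*-/- IMQ skin, against 7.83, 7.41 and 6.88 in *Ahr*+/- IMQ skin. Its difference of 1.90 (standard error 0.27, adjusted p = 0.00248) was 3.73-fold, with a 95% interval of 2.50 to 5.58. Receptor and ligands were thus higher in the same group, and in bulk skin fewer cells of a type and less RNA per cell cannot be told apart.

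**Figure D2:**
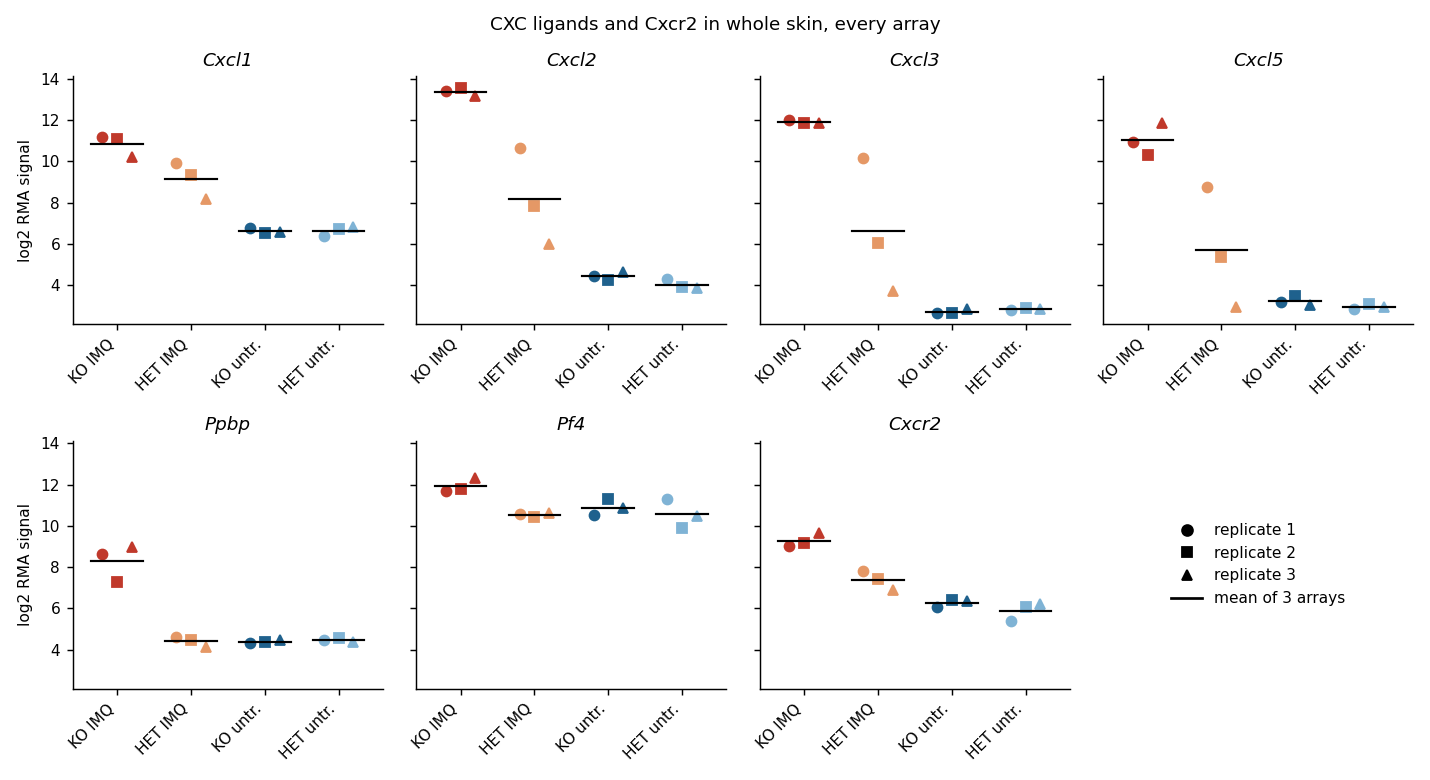
Log2 RMA signal (y axis) of the main probe set of each of the 7 genes in every array, by group (x axis; IMQ, 2 days of imiquimod; untr., untreated), with symbols for replicates and a line at the mean of 3 arrays. The *Ahr*-/- IMQ arrays (KO IMQ) are above the *Ahr*+/- IMQ arrays (HET IMQ) in all 7 panels, while *Cxcl2*, *Cxcl3* and *Cxcl5* spread over 4.69, 6.45 and 5.81 among *Ahr*+/- IMQ arrays.

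The calls and the sizes of the day 2 differences rested on few arrays. The log2 difference was 6.48 in *Cxcl2*, 7.02 in *Cxcl3* and 6.84 in *Cxcl5* without *Ahr*+/- IMQ replicate 1, and 4.14, 3.80 and 3.94 for the same genes without *Ahr*+/- IMQ replicate 3. With the *Gapdh* difference as a covariate, or with the 1 *Ahr*-/- IMQ array that had a low *Gapdh* difference (replicate 3) set alone against *Ahr*+/- IMQ skin and assumed to vary like the other groups, 1 of 7 members (*Ppbp*) stayed called, while the 7 log2 differences were 1.18 to 6.60 and 1.06 to 6.13. Without *Ahr*+/- IMQ replicate 2, 3 members stayed called (*Cxcl2*, *Ppbp* and *Cxcr2*), without replicate 3 of that group 5, and without *Ahr*-/- IMQ replicate 1 or 2, 4 (*Cxcl2*, *Cxcl5*, *Ppbp* and *Cxcr2*).

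Treated and untreated skin were then compared within *Ahr*-/- mice. All 7 members rose in *Ahr*-/- skin by day 2, and in all 7 every treated array lay above every untreated one, as in 21.7% of all genes. The 7 of 7 called higher stand against 10.6% of all genes, and their median log2 difference was 4.19 against 0.07 over all genes. *Cxcl3*, *Cxcl2* and *Cxcl5* rose most, and took places 3, 4 and 8 among all genes by size of rise.

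Untreated *Ahr*-/- skin gave *Cxcl3* log2 signals of 2.66, 2.67 and 2.85, under the 4.10 below which 10 percent of genes averaged, so the rise of 9.19 (standard error 1.08, adjusted p = 8.7e-05 from limma) started from near the bottom of the arrays' range. *Cxcl2* rose by 8.95 (standard error 0.79, adjusted p = 1.0e-05) over untreated signals of 4.43, 4.24 and 4.64. Both thus started low and ended with the largest rises of the 7. *Cxcl5* rose by 7.77 (standard error 1.00, adjusted p = 0.000172) over 3.21, 3.50 and 3.04, and *Cxcl1* by 4.19 (standard error 0.37, adjusted p = 1.0e-05) over 6.76, 6.56 and 6.59. The other *Cxcl1* sets rose by 5.75 and 1.37 and were called too, so the size of the *Cxcl1* rise depends on the probe set.

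*Ppbp* rose by 3.91 (standard error 0.33, adjusted p = 7.4e-06) over untreated signals of 4.32, 4.38 and 4.46. *Pf4* rose least, by 1.05 (standard error 0.31, adjusted p = 0.0221, 2.08-fold), over 10.50, 11.27 and 10.84. Without untreated *Ahr*-/- replicate 1 or 3, or *Ahr*-/- IMQ replicate 3, the *Pf4* rise was 0.87, 1.04 and 0.87 and was not called, nor was it with the *Gapdh* covariate (1.33, adjusted p = 0.0533). *Cxcr2* rose 8.00-fold, by 3.00 (standard error 0.27, adjusted p = 1.1e-05), over 6.05, 6.40 and 6.36.

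The same comparison was made within *Ahr*+/- mice. *Cxcl1*, *Cxcl2*, *Cxcl3* and *Cxcr2* rose in *Ahr*+/- skin, *Cxcl5* did not pass the test, and the platelet chemokine genes *Ppbp* and *Pf4* overlapped with untreated skin. The 4 of 7 called higher stand against 5.22% of all genes, and the median log2 difference of the 7 was 2.50 against -0.01 over all genes. No member was called lower. Without untreated *Ahr*+/- replicate 2, 3 members were called, and *Cxcl3* was lost.

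*Cxcl2* rose by 4.13 (standard error 0.79, adjusted p = 0.00644 from limma) over untreated signals of 4.32, 3.92 and 3.86. *Cxcl1* rose by 2.50 (standard error 0.37, adjusted p = 0.00131) over 6.37, 6.71 and 6.81, and in this case all 3 probe sets were called, with rises of 2.50, 4.45 and 1.07. *Cxcl3* rose by 3.81 (standard error 1.08, adjusted p = 0.0428) over 2.81, 2.88 and 2.85. Its call was the weakest of the 4, and was lost without any single array of the series other than *Ahr*+/- IMQ replicates 1 and 3, with an adjusted p of up to 0.106. *Cxcr2* rose by 1.48 (standard error 0.27, adjusted p = 0.00453), or 2.79-fold, over 5.39, 6.07 and 6.21.

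*Cxcl5* differed by 2.75 (standard error 1.00, adjusted p = 0.105), with 2.86, 3.11 and 2.93 in untreated *Ahr*+/- skin overlapping the lowest IMQ array. Without *Ahr*+/- IMQ replicate 3 it was called, at 4.12 (adjusted p = 0.00682). *Ppbp* had untreated signals of 4.46, 4.55 and 4.39 and a difference of -0.07 (95% interval -0.78 to 0.65). *Pf4* had 11.29, 9.88 and 10.47 and a difference of -0.0044 (95% interval -0.67 to 0.66). As folds these intervals run from 0.58 to 1.57 for *Ppbp* and from 0.63 to 1.58 for *Pf4*.

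For *Cxcl2*, *Cxcl3* and *Cxcl5* the *Ahr*+/- IMQ arrays differed more than for almost any other gene. In *Ahr*-/- IMQ skin the SDs were 0.20 for *Cxcl2*, 0.09 for *Cxcl3* and 0.78 for *Cxcl5*, and in *Ahr*+/- IMQ skin they were 2.36, 3.27 and 2.92, each larger than those of 99.98% of genes or more. *Ahr*+/- IMQ replicate 1 was the highest and replicate 3 the lowest of the 3 arrays in 6 of 7 members, all but *Pf4*. That order held in 17.4% of all genes and in 38.0% of the 949 genes called higher with imiquimod in *Ahr*+/- skin, and the 7 members share the same arrays, so they are not independent in this.

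Other lists differed along with the members in these 3 arrays. In *Ahr*+/- IMQ replicates 1, 2 and 3 the 7 members averaged 8.94, 7.27 and 6.06, the 12 neutrophil markers 7.39, 6.71 and 6.66, the 9 keratinocyte markers 12.62, 13.44 and 13.45, and the 17 hair follicle growth genes 7.81, 6.21 and 5.98 (mean log2 signal). Replicate 1 thus had the highest chemokine, neutrophil and hair follicle means and the lowest keratinocyte mean, and their part in the spread was not tested. The *Gapdh* difference was low in all 3, at 0.14, 0.17 and 0.28.

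**Figure D3:**
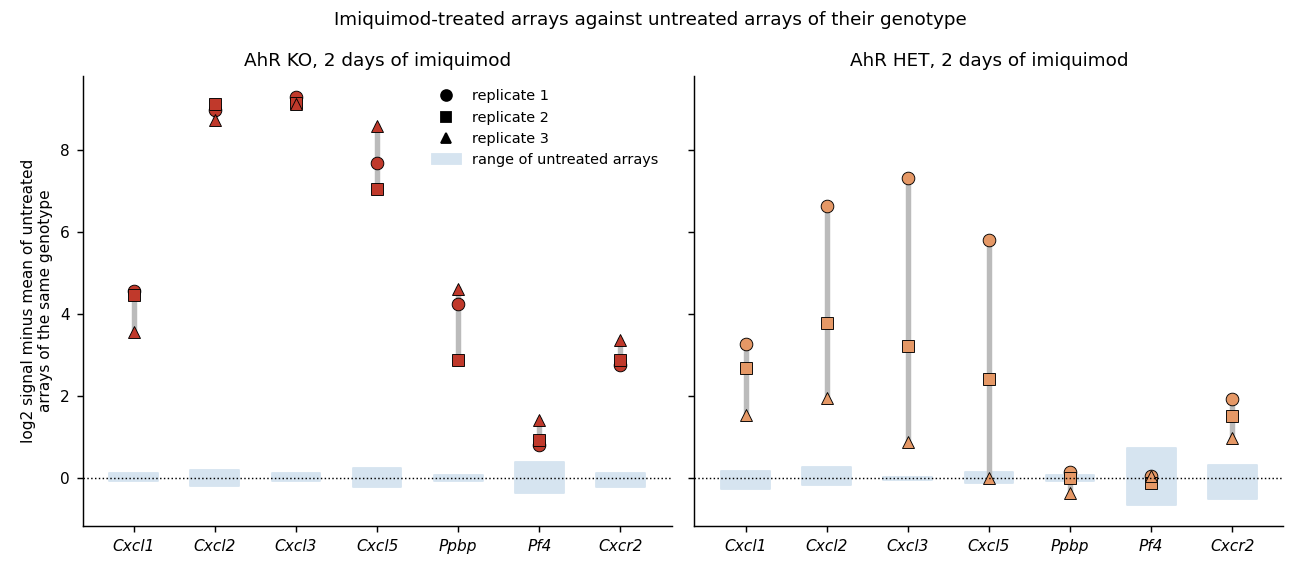
Log2 signal of each imiquimod-treated array minus the mean of the 3 untreated arrays of its genotype (y axis) for each gene (x axis), *Ahr*-/- left and *Ahr*+/- right, with a symbol for each replicate, a grey bar over their range and a blue box over the range of the untreated arrays. *Cxcl2* and *Cxcl3* are tightly placed in *Ahr*-/- skin, where *Cxcl5* spans 1.55, and all 3 are far apart in *Ahr*+/- skin, where replicate 1 is on top and replicate 3 at the bottom in 6 of 7 genes.

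Untreated skin was compared between the genotypes. Of the 7 members 0 were called, also 0 at an unadjusted p under 0.05, against 0.0055% of all genes called higher (1 gene) and 1180 genes at an unadjusted p under 0.05. The differences lay between -0.12 for *Cxcl3* and 0.40 for *Cxcl2*, and the arrays overlapped in all 7. In untreated skin the *Ahr*-/- arrays lay wholly above the *Ahr*+/- arrays in 5.03% of all genes and wholly below them in 3.78%, so overlap was what most genes showed. The 95% intervals ran from -0.79 to 0.81 for *Cxcl1*, from -1.31 to 2.12 for *Cxcl2*, from -2.45 to 2.22 for *Cxcl3*, from -1.88 to 2.45 for *Cxcl5* and from -0.20 to 0.96 for *Cxcr2*. Those of *Cxcl2*, *Cxcl3* and *Cxcl5* hold a 2-fold difference, but they rest on a spread pooled over all 4 groups. For these genes the *Ahr*+/- IMQ arrays, which are not compared here, widen that spread. With the untreated groups compared alone, the standard error was 0.19 for *Cxcl2* and 0.14 for *Cxcl3*, against 0.79 and 1.08 in the main fit.

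The responses of the genotypes were compared with each other. Every member's estimate was above 0, that is, it responded more in *Ahr*-/- than in *Ahr*+/- skin, and for *Ppbp* alone the difference of the responses passed the test over all genes. It was 3.97 for *Ppbp* (standard error 0.47, adjusted p = 0.00269 from limma), which is 1 of 7 members against 0.539% of all genes. For the other 6 the difference was 4.82 in *Cxcl2* (adjusted p = 0.0569), 1.52 in *Cxcr2* (0.0724), 5.03 in *Cxcl5* (0.0981), 5.38 in *Cxcl3* (0.100), 1.69 in *Cxcl1* (0.124) and 1.06 in *Pf4* (0.228).

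All 7 had an unadjusted p under 0.05, as did 3185 of the 18193 genes. Without *Ahr*+/- IMQ replicate 1, the array of that group with the highest member mean, 6 of 7 were called and *Pf4* was not, and without untreated *Ahr*+/- replicate 1 there were 3 (*Cxcl2*, *Ppbp* and *Cxcr2*). With array weights, which lower the influence of arrays far from their group, 6 were called. The comparisons share their arrays: the *Ahr*+/- IMQ arrays enter the day 2 difference, the *Ahr*+/- response and the difference of the responses, so these do not count as separate evidence.

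**Figure D4:**
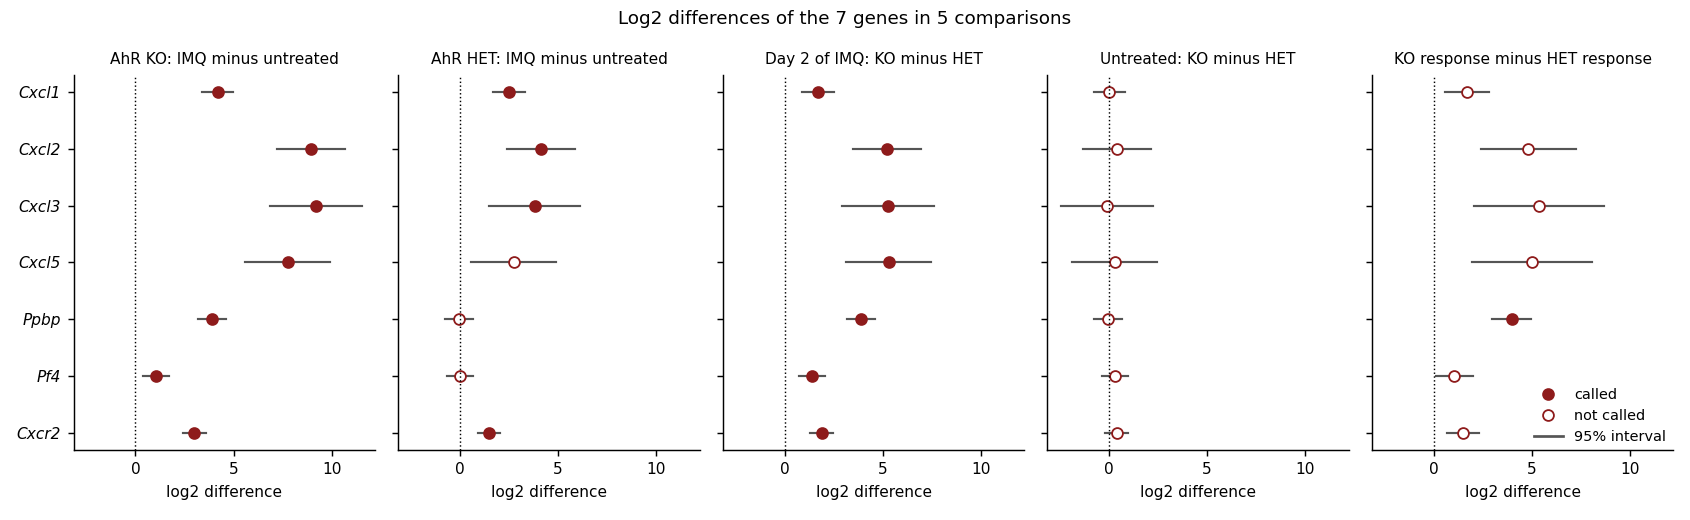
Log2 difference (x axis) of each of the 7 genes (y axis) in the 5 comparisons, with the 95% interval of the limma fit as a line and a filled point where the gene was called (adjusted p under 0.05 and at least 1.5-fold). All 7 are called in *Ahr*-/- skin and on day 2, 4 in *Ahr*+/- skin, 0 in untreated skin and 1, *Ppbp*, in the difference of the responses.

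Ordered by mean, *Ahr*-/- IMQ skin was highest for every member and apart from the next group, with arrays that did not overlap. Of all genes, 18.0% had every *Ahr*-/- IMQ array above every *Ahr*+/- IMQ array, and 21.7% had every *Ahr*-/- IMQ array above every untreated *Ahr*-/- array. For *Cxcl1*, *Cxcl2*, *Cxcl3* and *Cxcr2* the *Ahr*+/- IMQ group came second and did not overlap with the untreated groups, where 15.4% of all genes had every *Ahr*+/- IMQ array above every untreated *Ahr*+/- array. For *Cxcl5* the *Ahr*+/- IMQ arrays overlapped with untreated skin, and for *Ppbp* and *Pf4* the 3 remaining groups overlapped with each other. The untreated groups overlapped in all 7 genes.

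Likeness of pattern was read as Pearson's r over the 12 arrays and as r of the deviations from the 4 group means, as a description, since the arrays fall into groups. *Cxcl2* and *Cxcl3* were most alike (0.994, deviations 0.988), and *Cxcl3* and *Cxcl5* followed (0.989, deviations 0.957). *Cxcl1* deviated together with *Cxcl2* (0.794) and *Cxcl3* (0.786). The deviations of *Ppbp* correlated with those of the other members at -0.08 (*Cxcl1*) to 0.47 (*Cxcl5*), and those of *Pf4* at -0.39 (*Cxcl1*) to 0.16 (*Ppbp*).

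Among all other genes, those nearest to *Cxcl2* after *Cxcl3* were *Ccl3*, a chemokine of neutrophils and macrophages (0.990), and *Chil3*, a secreted chitinase-like protein of myeloid cells (0.990). *Mmp8*, the neutrophil collagenase, was near to *Cxcl3* (0.990) and *Cxcl5* (0.985), and *Clec4e*, a myeloid C-type lectin receptor, was near to *Cxcl5* (0.985). *Cxcr2* was nearest to *Il1b* (0.976), *Hdc*, which makes histamine, and *Clec4d*, another myeloid lectin receptor (both above 0.97). Most of these genes are known from neutrophils and macrophages. *Cxcl1* was nearest to *Sh2d5* (0.986), *Aprt* (0.983) and *Tbc1d2* (0.983), *Ppbp* to *Col8a1* (0.969), *Bdkrb1* (0.963) and *Olfm4* (0.956), and *Pf4* to *Bicc1* (0.933), *Emilin1* (0.932) and *Il1r2* (0.922).

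Cytokines known to induce the ligands moved with them in part. Of 18 measured inducing cytokines and receptors 12 rose with imiquimod in *Ahr*-/- skin and 7 in *Ahr*+/- skin, and 6 were higher in *Ahr*-/- IMQ skin than in *Ahr*+/- IMQ skin, with a median difference of 0.40 against 0.06 over all genes. *Il1b*, the gene of interleukin 1 beta, had 12.55, 12.69 and 12.81 in *Ahr*-/- IMQ skin, against 9.95, 8.08 and 7.74 in *Ahr*+/- IMQ skin, the same order of *Ahr*+/- arrays as in 6 of the 7 members. *Il6*, a cytokine made by many skin cells, was higher by 2.38 (standard error 0.39), *Osm*, the gene of the leukocyte cytokine oncostatin M, by 2.18 (standard error 0.18) and *Il1r1*, the signalling receptor of interleukin 1, by 1.51 (standard error 0.23). The interleukin 36 genes *Il1f6*, *Il1f8* and *Il1f9*, named after their values were seen, were called in both genotypes and had day 2 differences of -1.51, -1.63 and -0.84 that were not called.

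The genes that lead from those receptors to the ligand promoters were not called between the genotypes on day 2. Of 17 measured signalling genes of the interleukin 1 and 17 receptors and NF-kB, 7 rose in *Ahr*-/- skin and 5 in *Ahr*+/- skin, and 0 were called on day 2 by limma, with 4 at an unadjusted p under 0.05. With 2.12% of all genes called higher on day 2, a count of 0 in so short a list is near the share of all genes. The day 2 difference was above 0 in 14 of the 17, with a median of 0.25 against 0.06 over all genes. *Rela* and *Relb*, subunits of NF-kB, had the largest day 2 differences of the list, 0.57 (adjusted p = 0.0796) and 0.66 (adjusted p = 0.248). Of 8 regulators of chemokine mRNA stability 1 was called on day 2, *Arid5a*, which binds and stabilises inflammatory mRNAs, with 8.44, 8.46 and 7.46 in *Ahr*-/- IMQ skin, against 7.32, 6.63 and 6.87 in *Ahr*+/- IMQ skin.

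Other attractants and growth factors of neutrophils, with their receptors, rose in part beside the 7 members. Of 13 measured, 9 rose with imiquimod in *Ahr*-/- skin and 4 in *Ahr*+/- skin, and 8 were higher in *Ahr*-/- skin on day 2, with a median difference of 1.33. *Ccl3* was 32.1-fold higher (log2 standard error 0.57), *Ccl4*, its close relative, by 3.58 on the log2 scale (standard error 0.31), *Csf3*, the gene of granulocyte colony-stimulating factor, by 2.75 (standard error 0.51), and *Csf3r*, the receptor of that factor, by 2.30 (standard error 0.29). Among 17 other CXC chemokines and receptors, 2 were called on day 2, *Cxcl14*, a chemokine of healthy epithelium (2.09, standard error 0.30), and *Cxcr4*, the receptor of *Cxcl12* (2.07, standard error 0.30). The day 2 difference was called higher in 7 of 7 members, in 2 of 17 genes of the wider CXC family and in 2.12% of all genes. Members and lists were chosen with earlier results of these data known, and the difference in shares was not tested. Downstream of CXCR2, 1 of 15 measured signalling genes was called on day 2, *Fgr*, a Src-family kinase of myeloid cells (1.54, standard error 0.25).

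Part of the neutrophil markers rose as well, and none was called lower. Some genes of this list, among them *Csf3r*, also stand in the list of attractants and growth factors and count in both. Of 12 measured, 7 rose with imiquimod in *Ahr*-/- skin and 4 in *Ahr*+/- skin, and 6 were higher in *Ahr*-/- skin on day 2, the largest differences being those of *Mmp8*, *Mmp9*, *Trem1* and *Ngp*. Their summed linear signal was 9041 to 9987 in *Ahr*-/- IMQ skin and 3305 to 5416 in *Ahr*+/- IMQ skin, and 1405 to 1759 in untreated *Ahr*-/- skin and 839 to 1951 in untreated *Ahr*+/- skin. *Mpo* and *Elane*, granule genes of immature neutrophils, stayed near the bottom of the range in all arrays, between 4.21 and 5.62. The part of neutrophil number in the signals of *Cxcr2* and the ligands was not tested.

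On day 2 the median difference of the platelet list was smaller than the differences of *Ppbp* and *Pf4*. Of 10 measured platelet and megakaryocyte markers 0 were called on day 2 by limma (3 at an unadjusted p under 0.05), and only *Gp1bb* rose with imiquimod, in each genotype. As 2.12% of all genes were called higher on day 2, a count of 0 in 10 is near that share. The day 2 difference was above 0 in 7 of the 10 markers. Their summed linear signal was 813 to 892 in *Ahr*-/- IMQ skin and 764 to 783 in *Ahr*+/- IMQ skin, and 556 to 660 in untreated *Ahr*-/- skin and 585 to 658 in untreated *Ahr*+/- skin. *Clec1b*, *Gp6* and *F2rl3* lay between 3.42 and 4.85 in every array. *Tubb1*, the platelet tubulin, was 0.47 higher in *Ahr*-/- skin on day 2 (adjusted p = 0.215), and *P2ry12* had a difference of -0.96 (adjusted p = 0.237). The day 2 median of the list was 0.28 against 0.06 over all genes, and the part of platelets in the signals of *Ppbp* and *Pf4* was not tested.

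Of the markers of other cells, 1 of 10 macrophage and monocyte markers was called lower on day 2, *Adgre1* (-1.60, standard error 0.30), 1 of 8 mast cell markers was called higher, *Fcer1a* (1.48, standard error 0.35), and 2 of 9 keratinocyte markers were called lower, *Krt1* and *Krt10*, keratins of differentiating epidermis. Of all 18193 genes 2.12% were called higher on day 2 and 339 genes lower, so counts of 0 or 1 in lists this short say little. The day 2 difference was above 0 in only 3 of the 8 mast cell markers (median -0.19). It was above 0 in 5 of the 10 macrophage and monocyte markers and in 0 of the 9 keratinocyte markers. Of 11 fibroblast and endothelial markers, *Cdh5* was higher (1.10, standard error 0.22) and *Lum* lower (-1.12, standard error 0.27), and of 17 hair follicle growth genes 0 were called on day 2 (0 at an unadjusted p under 0.05, limma). The part of these cells in the chemokine signals was not tested.

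**Figure D5:**
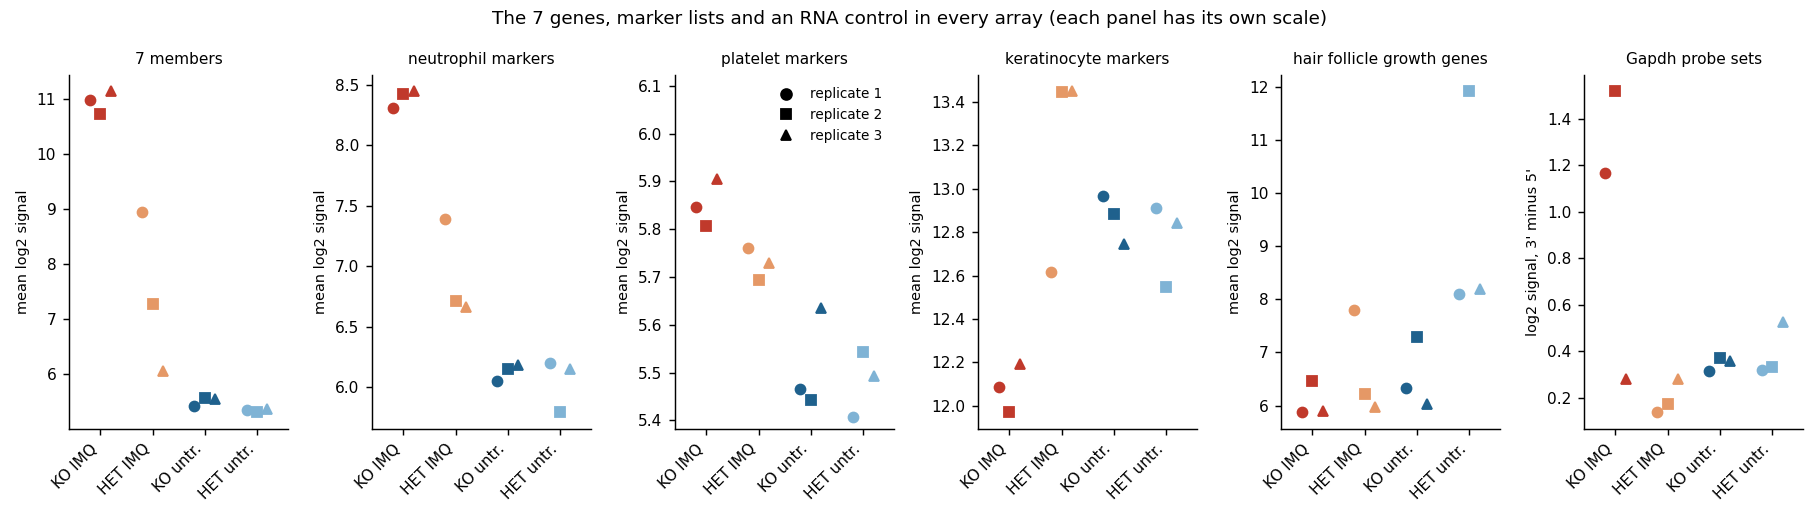
Mean log2 signal (y axis, its own scale in each panel) of the 7 members and of 4 marker lists, and the log2 excess of 3' over 5' *Gapdh* control sets, in every array by group (x axis), with symbols for replicates. The neutrophil means follow the members, with 8.31 to 8.45 in *Ahr*-/- IMQ and 6.66 to 7.39 in *Ahr*+/- IMQ skin, while the platelet means span only 5.41 to 5.91 over all 12 arrays.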

How the data were processed

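Total RNA of whole mouse skin was hybridised to 12 Affymetrix arrays, 3 per group. The authors deposited log2 signals per probe set made by RMA with the R package affy, and the sources read here name no version. RMA compresses differences at both ends of the range, and no detection calls were used. Of 45101 probe sets, 64 controls, 932 with several genes and 9160 without a symbol in the platform annotation were left out, and the brightest set over the 12 arrays stood for each of 18193 genes.

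Group means of all 12 arrays were fitted with 1 shared variance per gene in limma 3.58.1 under R 4.3.3 (residual degrees of freedom 8, prior 4.44), and p-values were adjusted over all genes by the Benjamini-Hochberg method. The rank product that the study used was not run here, and its 1.5-fold minimum was kept. On simulated data with 100 genes changed 2-fold and 100 changed 4-fold, the fit recovered 56 and 96 of them in the day 2 comparison. Each simulated gene had the same spread in all groups, which *Cxcl2*, *Cxcl3* and *Cxcl5* did not have, so these shares may not hold for them. The members and lists were chosen with earlier results of these data known. Genes named from the lists are up to 4 called genes with the largest day 2 differences in either direction, or up to 2 where none was called, besides all members and the 3 genes most like each. *Il1f6*, *Il1f8*, *Il1f9*, *Mpo*, *Elane*, *Gp1bb*, *Clec1b*, *Gp6* and *F2rl3* fall outside this rule and were named after their values were seen. The number of arrays limits the precision. Alternatives were other scalings, filters, variance models, probe set rules and arrays left out. Promoters are from RefSeq, GRCm38.p6, and figures were drawn with matplotlib 3.10.9.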

Additional observations from a re-analysis of the deposited data

Results flagged for a closer look

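*Ppbp* responded to imiquimod differently in the 2 genotypes. Its response in *Ahr*-/- skin minus that in *Ahr*+/- skin was a log2 value of 3.97 with a standard error of 0.47 and an adjusted p of 0.00269 from limma over all genes, with all 3 *Ahr*-/- IMQ arrays above every other array. Under 24 alternatives the difference lay between 3.62 and 4.99 and the adjusted p between 1.8e-05 and 0.0149.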

How the results depend on the processing

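Of 854 repeats of the members' differences under alternatives, 777 kept direction and call, 54 lost the call, 14 gained it and 9 changed sign, all 9 in differences near 0 that were not called. Many repeats could hardly change: dropping the fold minimum cannot lose a call, and leaving out an array outside a comparison keeps its difference. The total therefore says little about the day 2 calls. Of 25 repeats each, the day 2 call was lost in 9 for *Cxcl1*, 8 for *Pf4*, 7 for *Cxcl3* and 4 for *Cxcl5*. It was lost in 2 for *Cxcl2*, 2 for *Cxcr2* and 0 for *Ppbp*. Members called on day 2 were 3 at an adjusted p under 0.01 and 1 with the *Gapdh* covariate or with *Ahr*-/- IMQ replicate 3 alone, against 7. Leaving out each array gave 3 to 7 on day 2, 6 to 7 in *Ahr*-/- skin, 3 to 5 in *Ahr*+/- skin, 0 in untreated skin and 1 to 6 for the difference of the responses, against 7, 7, 4, 0 and 1. The difference of the responses had 2 calls with arrays centred on their medians and 6 with array weights, and *Ahr*+/- skin had 2 with its groups compared alone. The cause was not tested.

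Differences that changed sign were those of *Cxcl1* in untreated skin, to -0.0271 with arrays centred on their medians, -0.0807 with quantile normalization and -0.0848 with array weights. With single arrays left out it lay between -0.12 and 0.0962, *Pf4* in untreated skin between -0.0076 and 0.697, and in *Ahr*+/- skin the response of *Ppbp* between -0.172 and 0.0797 and that of *Pf4* between -0.337 and 0.368. Same-numbered arrays did not deviate together (correlations of -0.18 to 0.32), so the numbers were not read as pairs, and with the replicate block the counts were 7, 4, 7, 0 and 1, the same as without it. Untreated *Cxcl3* and *Cxcl5* lay near the bottom of the range. Untreated *Cxcl2* (3.86 to 4.64), and *Ppbp* in all groups but *Ahr*-/- IMQ skin (4.11 to 4.61), lay near the 4.10 below which 10 percent of genes averaged. RMA compresses differences at this end, so the true size of the folds of these genes is uncertain.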
